A study of Mus musculus with 9 samples.

Results

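The IFIT genes encode interferon-induced RNA-binding proteins, and they were followed here in bone marrow megakaryocytes (MKs) of mice before and after irradiation (IR). The members, Ifit1, Ifit2, Ifit3, Ifit3b and Ifit1bl1, were taken by name and matched to the gene names of the arrays and of the deposited log2 table. All 5 were found among the 37316 genes named on the array, each with 1 probe. All 5 were well above background on all 9 arrays and were among the 29410 genes tested, so no member entered through the group in which it was high. In the array files Ifit1bl1 carries its older name Gm14446.

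RNA came from MKs of male, background-matched mice in 3 groups of 3 arrays, from independent experiments with different donors. Control mice (Ctrl) were not irradiated (the study's methods describe sham irradiation), and the other groups were sampled 1 and 3 days post IR (dpi) with 5 Gy of γ-rays. The labels give no strain or age. The study counts n as mice and gives n = 3 for its microarray data, while the labels do not tie each array to a mouse. The methods describe MKs enriched through the surface proteins CD41 and CD42d. The 12 megakaryocyte markers examined (among them Itga2b, Pf4 and Gp9) were well above background on all arrays. So were the neutrophil, macrophage, B cell, T and NK cell and stromal markers examined, so this does not set MKs apart from other cells. Gene expression was read on Agilent 1-colour arrays, and the share of spots well above background was 69.1% for Ctrl replicate 1, the lowest of all arrays, 79.5% and 80.8% for Ctrl replicates 2 and 3, 72.3% to 75.6% at 1 dpi and 81.6% to 81.8% at 3 dpi. Ctrl replicate 1 was also alone on its slide. Levels are given as log2 intensity after the array's 75th percentile was subtracted, so a level of 0 lies at that percentile. Levels are compared within a gene only, because probes of different genes differ in brightness.

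IFIT proteins are built from tetratricopeptide repeats and bind RNA that marks infection, such as RNA with a bare triphosphate or an incompletely methylated cap, and some of them also bind the translation initiation factor eIF3. Their genes are scarcely used at rest. They are switched on by type I interferon through the transcription factor complex ISGF3, which binds the interferon-stimulated response element (ISRE), and in some cells directly by Irf3 or Irf7. MKs carry the interferon receptor and are known to raise such genes in viral infection.

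The genes lie in a row on chromosome 19, and their upstream sequences are shown because all 5 genes changed in the same direction. All 5 members had a window in the RefSeq promoter table (GRCm38.p6), which holds 250 bases before and 50 after each transcript start. The core letters of the ISRE, GAAANNGAAA, read as TTTCNNTTTC on the opposite strand, were searched on both strands. They occurred in 1131 of all 32851 windows (3.44%), and at least 2 matches occurred in 74 windows (0.225%). Of the members, 4 held a match, and 3 of them (Ifit1, Ifit3 and Ifit3b) held 2. The stretches that hold the matches are printed with the matches in capitals. They lie at chr19:34640770-34640828 for Ifit1, chr19:34583358-34583431 for Ifit3 and chr19:34607754-34607827 for Ifit3b, all on the plus strand, and at chr19:34602048-34602087 on the minus strand for the first start of Ifit1bl1.
Ifit1: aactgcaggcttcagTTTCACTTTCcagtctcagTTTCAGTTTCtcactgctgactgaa
Ifit3: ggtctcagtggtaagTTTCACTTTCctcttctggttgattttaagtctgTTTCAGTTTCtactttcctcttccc
Ifit3b: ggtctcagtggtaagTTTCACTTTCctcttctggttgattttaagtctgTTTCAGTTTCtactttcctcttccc
Ifit1bl1: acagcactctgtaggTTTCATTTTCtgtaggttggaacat

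The stretches of Ifit3 and Ifit3b differed at 0 of 74 bases, and that of Ifit3b lay 32 bases further upstream of its start. Over the whole 250 bases before the start, 216 of the 282 aligned positions of these genes were identical (76.6%), and 64 positions were gaps. For Ifit1 and Ifit3, 139 of 274 were identical (50.7%), with 48 gap positions. Gap positions count as not identical in both shares. The matches began 104 and 85 bases before the start in Ifit1, 156 and 122 in Ifit3, 188 and 154 in Ifit3b and 104 in Ifit1bl1. The second start of Ifit1bl1 also held 1 match, 23 bases upstream. Neither of the 2 windows of Ifit2 held these letters, which says nothing about sequence outside them. A match is a description of the letters, and binding was not analysed here.

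Each member was read by a single probe of 60 bases. On the build mm9 used by the array files, the probes lie at chr19:34723827-34723886 (Ifit1), chr19:34650244-34650303 (Ifit2), chr19:34663105-34663164 (Ifit3) and chr19:34687522-34687581 (Ifit3b) on the plus strand, and at chr19:34667950-34668009 (Ifit1bl1) on the minus strand. Their first 30 bases are printed because Ifit3 and Ifit3b are close copies and the probes decide which of them is read.
Ifit1 probe: gaagacttttggcttactagagaattaaaa
Ifit2 probe: tcatataaacatttatttcaagagtatgga
Ifit3 probe: caattttccagtcagcaaacctcattacta
Ifit3b probe: cttaaagctcacagaccaccttttgatcac
Ifit1bl1 probe: tgcttgcttttctacagccataatttatgg

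Over the whole 60 bases, the longest run shared by any pair among these probes and that of the relative Ifit1bl2 was 8 bases. Whether the probe of one gene also catches RNA of another was not tested.

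Ifit3, which forms complexes with other IFIT proteins, had the largest change from Ctrl of the 5 members at both times. Its intensities before scaling were 1140, 1890 and 1810 in Ctrl, 10400, 11400 and 10800 at 1 dpi and 7390, 7470 and 7250 at 3 dpi. On the scaled log2 scale, Ifit3 stood at 0.12, 0.26 and 0.16 in Ctrl, at 4.01, 4.02 and 3.98 at 1 dpi and at 2.49, 2.31 and 2.29 at 3 dpi. Each group lay apart from the others, with Ctrl lowest and 1 dpi highest. How many of all genes had groups that lay apart was not counted. Here and below, such a statement describes the arrays and does not single out the members. Irf3, for example, also lay apart from Ctrl at 1 dpi, with a difference of only -0.17 (adjusted p = 0.14 from limma). The mean rose by 3.82 at 1 dpi (SE 0.07, a 14.1-fold change, adjusted p = 1.1e-07 from limma over all genes) and by 2.18 at 3 dpi (SE 0.07, 4.54-fold, adjusted p = 6.9e-07).

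Its near copy Ifit3b was at -1.08, -1.32 and -1.32 in Ctrl, at 2.23, 2.20 and 2.17 at 1 dpi and at 0.40, 0.38 and 0.28 at 3 dpi. The 3 groups again did not overlap. Ifit3b rose by 3.44 at 1 dpi (SE 0.08, 10.9-fold, adjusted p = 2.4e-07) and by 1.60 at 3 dpi (SE 0.08, 3.02-fold, adjusted p = 5.3e-06).

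Ifit1, which binds RNA by its cap or triphosphate end, was at -0.88, -1.07 and -1.01 in Ctrl, at 2.03, 2.14 and 2.07 at 1 dpi and at 0.62, 0.49 and 0.40 at 3 dpi. No array of one group reached into another. The rise was 3.06 at 1 dpi (SE 0.08, 8.35-fold, adjusted p = 3.9e-07) and 1.49 at 3 dpi (SE 0.08, 2.80-fold, adjusted p = 8.3e-06).

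Its paralogue Ifit1bl1 was at -4.04, -3.77 and -3.71 in Ctrl, at -1.49, -1.53 and -1.33 at 1 dpi and at -3.21, -2.84 and -2.75 at 3 dpi. This was the member with the widest spread at 3 dpi (SD 0.24, n = 3), where replicate 1 was the lowest array. Ifit1bl1 rose by 2.39 at 1 dpi (SE 0.14, 5.23-fold, adjusted p = 1.2e-05). The lowest value under the alternatives was 1.61, which was still called. At 3 dpi all 3 arrays were above all Ctrl arrays, and the difference was 0.90 (SE 0.14, 1.87-fold, adjusted p = 0.0021), below the 2-fold change that a call required. Without 3 dpi replicate 1 it was 1.04 and was called (adjusted p = 0.0011).

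Ifit2, which binds AU-rich RNA, changed least at 1 dpi. It was at -0.68, -0.92 and -0.92 in Ctrl, at 0.83, 0.78 and 0.89 at 1 dpi and at 0.16, 0.37 and 0.33 at 3 dpi. Its groups did not overlap either. The rise was 1.67 at 1 dpi (SE 0.09, 3.18-fold, adjusted p = 7.7e-06) and 1.13 at 3 dpi (SE 0.09, 2.18-fold, adjusted p = 6.2e-05).

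**Figure D1:**
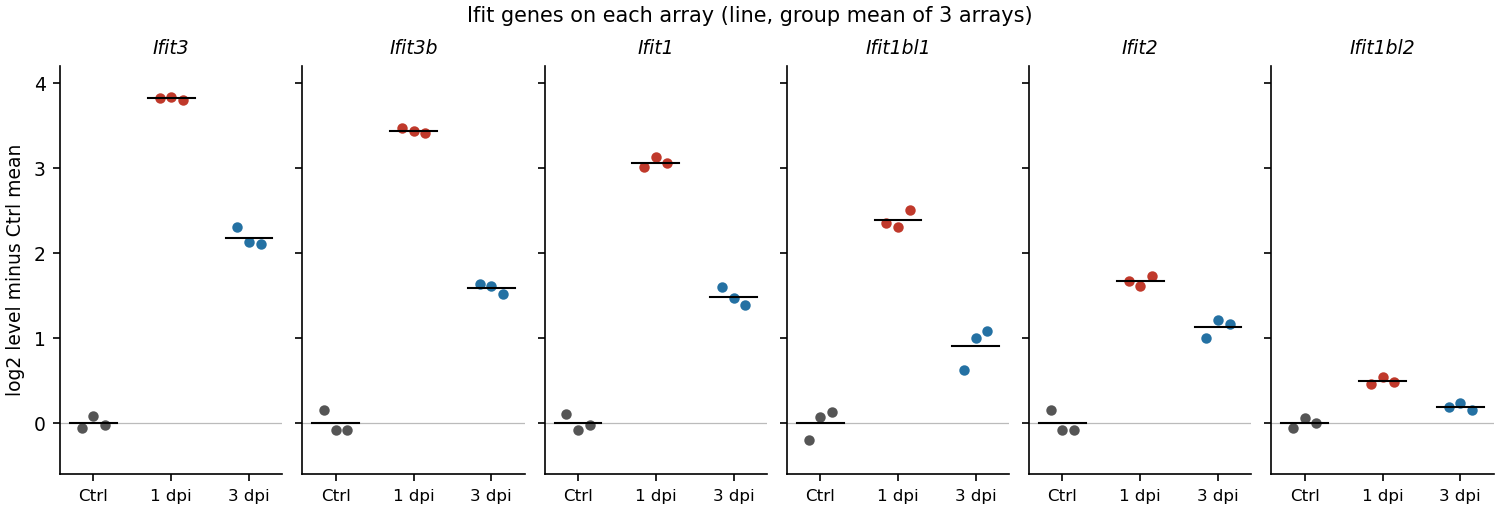
Scaled log2 level of each Ifit gene on each of the 9 arrays, given as the difference from the gene's own Ctrl mean; points are arrays and lines are means of 3. The 5 members are highest at 1 dpi and lie between Ctrl and 1 dpi at 3 dpi, while their relative Ifit1bl2 differs from Ctrl by 0.50 at 1 dpi.

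In all, 5 of 5 members were called higher at 1 dpi, where 12.3% of all genes tested were called higher and 2.87% lower, and 0 members were lower in limma. At 3 dpi 4 of 5 were called higher, against 6.98% of all genes called higher and 1.82% lower. A call required a Benjamini-Hochberg adjusted p under 0.05 and at least a 2-fold change. These comparisons share the Ctrl arrays and are not independent of each other. The median log2 fold change of the 5 members was 3.06 at 1 dpi and 1.49 at 3 dpi, whereas the median of all genes was 0.25 and 0.11 under this scaling. Relative to those medians the members' changes were 3.57, 3.19, 2.81, 2.14 and 1.42 at 1 dpi for Ifit3, Ifit3b, Ifit1, Ifit1bl1 and Ifit2, and 2.07, 1.48, 1.37, 0.79 and 1.01 at 3 dpi. The counts of called members were 5 and 4 under every other scaling tried, although the share of increases among all genes called at 1 dpi depended on the scaling (81.1% here, 56.3% with quantile normalization, 48.8% when array medians were made equal). Ranked by rise among the 29410 genes at 1 dpi, Ifit3 was at place 96, Ifit3b at 130, Ifit1 at 193, Ifit1bl1 at 406 and Ifit2 at 1096. With only the 8 arrays of the shared slide, which hold 2 of the Ctrl arrays, the change at 1 dpi was 3.79 for Ifit3, 3.52 for Ifit3b, 3.12 for Ifit1, 2.29 for Ifit1bl1 and 1.75 for Ifit2. With 3 arrays on each side, exact permutation cannot give a two-sided p below 0.10, so all p-values here come from limma over all genes.

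The members differed in how far they rose. The difference between the changes of neighbours in that order was taken within each array, where the scaling cancels. At 1 dpi Ifit3 rose by 0.38 more than Ifit3b on the log2 scale, Ifit3b by 0.38 more than Ifit1, Ifit1 by 0.67 more than Ifit1bl1 and Ifit1bl1 by 0.72 more than Ifit2. For each of these 4 pairs, the within-array differences at 1 dpi did not overlap those in Ctrl. At both times the order was taken from these same changes, so the direction of each difference was set beforehand. How often other pairs of genes lie apart was not counted. At 3 dpi the order was Ifit3, Ifit3b, Ifit1, Ifit2 and Ifit1bl1. There Ifit3 exceeded Ifit3b by 0.59 and Ifit1 exceeded Ifit2 by 0.36 without overlap between the groups, while Ifit3b and Ifit1 (0.11) and Ifit2 and Ifit1bl1 (0.22) did not differ beyond the spread of the arrays. Both orders were the same with quantile normalization, after normexp correction and with any single array left out. The deposited table, which lay within 0.0025 of quantile-normalized intensities for these genes, gave the same orders and is not a further check. Probes can respond unequally to an equal change in RNA, and their part in these differences was not tested.

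Between 1 and 3 dpi, 4 of 5 members were called lower at 3 dpi, against 4.82% of all genes called lower and 3.97% higher in that comparison. The share of increases among the genes called there was 45.2%, but 67.2% with array medians made equal and 62.9% with quantile normalization, while the same 4 members were called lower under both. Ifit3b fell by 1.85 (SE 0.08, adjusted p = 9.7e-06), Ifit3 fell by 1.64 (SE 0.07, adjusted p = 9.7e-06), Ifit1 fell by 1.58 (SE 0.08, adjusted p = 1.6e-05) and Ifit1bl1 fell by 1.48 (SE 0.14, adjusted p = 1.9e-04). At 3 dpi these genes stood at 27.8%, 32.1%, 33.6% and 35.8% of their level at 1 dpi. For Ifit2 the difference was -0.55 (SE 0.09, adjusted p = 0.0023), short of 2-fold, and 68.5% of its level at 1 dpi was still measured at 3 dpi. Its arrays at 3 dpi were nonetheless all below those at 1 dpi. The median of all genes in this comparison was -0.11.

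Among the other genes of the locus, Ifit1bl2 is a further paralogue of Ifit1 and was outside the 5 members. Its transcript starts 146 bases from that of Ifit1 and runs on the opposite strand, so the stretch printed for Ifit1 also lies upstream of Ifit1bl2, and read from that side (chr19:34640770-34640828, minus strand) it is as follows.
Ifit1bl2: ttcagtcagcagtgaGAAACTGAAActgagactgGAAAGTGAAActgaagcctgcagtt

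From this start of Ifit1bl2 the matches lay 70 and 51 bases upstream, while the window of its other start held none. Ifit1bl2 was at -0.14, -0.03 and -0.09 in Ctrl, at 0.38, 0.46 and 0.40 at 1 dpi and at 0.10, 0.15 and 0.07 at 3 dpi. Its groups did not overlap, but the differences from Ctrl were small, 0.50 at 1 dpi (adjusted p = 3.1e-04, SE 0.06) and 0.19 at 3 dpi (adjusted p = 0.038), and neither was called. Relative to the median of all genes they were 0.25 and 0.08. Within the arrays, Ifit1 rose by 2.56 more than Ifit1bl2 at 1 dpi (SD of the within-array difference 0.02 at 1 dpi and 0.15 in Ctrl, n = 3 each) and by 1.29 more at 3 dpi (SD 0.11).

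Ch25h, at one end of the locus, encodes an enzyme that makes an antiviral oxysterol and is itself induced by interferon. It was well above background on 2 of 3 Ctrl arrays and on all later ones, and the rise was 2.74 at 1 dpi (adjusted p = 4.3e-05, SE 0.21) and 1.91 at 3 dpi (adjusted p = 3.3e-04). After normexp correction with quantile normalization, which shrinks the change of dim probes through its offset, these values were 0.99 and 0.61 and were not called. The lysosomal lipase gene Lipa was 0.62 above Ctrl at 1 dpi, which was not called, and rose by 1.16 at 3 dpi (SE 0.11, adjusted p = 1.3e-04). Slc16a12, Pank1 and Kif20b, beyond the other end, were not called against Ctrl, with -0.56, -0.81 and -0.89 at 1 dpi and 0.61, -0.78 and -0.13 at 3 dpi. The sign of their difference at 1 dpi was the same under all scalings, but Pank1 and Kif20b were called lower with array medians made equal (-1.13 and -1.20), as was Slc16a12 with quantile normalization (-1.08). A second Kif20b probe gave -0.13 at 1 dpi. Of the 5 flanking genes, 1 (Ch25h) was called at 1 dpi, where 12.3% of all genes were called higher, and the arrays of Slc16a12 overlapped those of Ctrl. The signs of these differences are therefore not read as a pattern along the locus.

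**Figure D2:**
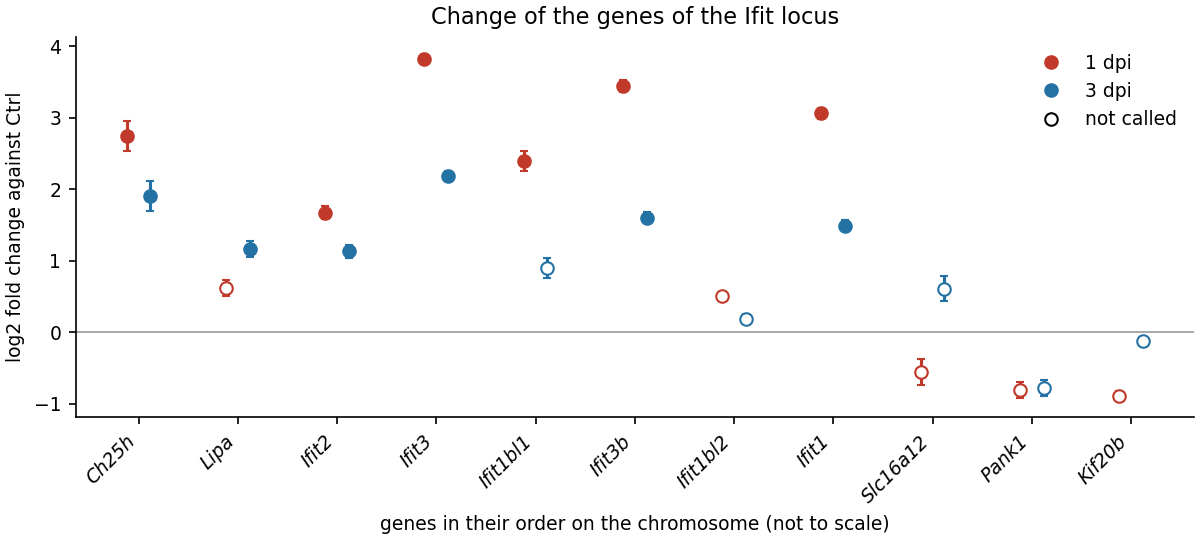
Log2 fold change against Ctrl (with SE) of the 5 Ifit members, Ifit1bl2 and the flanking genes, in the order of their transcript starts on chromosome 19; red is 1 dpi, blue is 3 dpi, and open symbols were not called. Ifit1bl2, next to Ifit1, lies at 0.50 and 0.19, and the genes beyond Ifit1 were not called at either time.

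The pathway that switches on IFIT genes was followed from the interferon to its transcription factors. Ifnb1, the gene of interferon β, was not well above background on any Ctrl array and was so on all arrays at 1 and 3 dpi. It stood at -4.00, -4.29 and -3.72 at 1 dpi and at -6.06, -6.44 and -6.04 at 3 dpi, so the arrays of these groups did not overlap. Its level at 1 dpi was at least 6.02-fold that of Ctrl. This lower bound sets the dimmest signal still well above background in place of the Ctrl value where the latter was lower. The call at 1 dpi (adjusted p = 1.2e-05 from limma) belongs to the fitted difference, which rests on Ctrl values not well above background. Ifnb1 passed the filter only through the irradiated groups. At 3 dpi the bound was 1.33-fold and the difference was not called. After normexp correction with its offset, Ifnb1 was not called at 1 dpi either (0.75).

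Stat2, which encodes a subunit of ISGF3, rose by 1.04 at 1 dpi (SE 0.07, adjusted p = 2.9e-05). With array medians made equal, it stayed under 2-fold (0.72). At 3 dpi Stat2 was 0.41 above Ctrl (adjusted p = 0.004 from limma), short of 2-fold and so not called. Irf9, the gene of a further subunit, was 0.32 above Ctrl at 1 dpi and 0.20 below at 3 dpi (-0.20), neither of them called. The receptor genes Ifnar1 and Ifnar2 differed from Ctrl by 0.62 and -0.27 at 1 dpi, without a call, and the probes of Ifnar1 ranged from -0.04 to 0.64. All these changes are of RNA, and phosphorylation of the proteins was not analysed here.

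Of the 11 genes of the RNA-sensing route upstream of interferon, 5 were called higher at 1 dpi, against 12.3% of all genes, and none lower (median 0.78). With array medians made equal, 3 were higher and 1 was lower (median 0.47), and 7 were higher with the deposited table (median 1.21). Irf7, the transcription factor that amplifies interferon production, increased by 2.14 at 1 dpi (adjusted p = 1.5e-06, SE 0.08) and by 1.25 at 3 dpi (adjusted p = 1.6e-05). Irf1, a related factor, rose by 1.48 at 1 dpi (adjusted p = 3.5e-06), while at 3 dpi its difference from Ctrl was -0.11 (adjusted p = 0.25). Dhx58, an RNA sensor of the RIG-I family, rose by 1.36 at 1 dpi, Tlr3, the endosomal receptor for double-stranded RNA, by 1.29 and the kinase gene Ikbke by 1.13. The calls of Tlr3 and Ikbke were lost when array medians were made equal (0.98 and 0.81), and after normexp correction (0.37 and 0.89), and that of Tlr3 also with quantile normalization (0.84). The second probe of Ikbke gave 0.65. The sensor genes Ddx58 (RIG-I) and Ifih1 (MDA5) were 0.78 and 0.69 above Ctrl at 1 dpi, short of 2-fold, while other probes of these genes gave up to 1.57 and 1.33. The adaptor gene Mavs was at -0.43 and Irf3 at -0.17, neither called. At 3 dpi 3 of the 11, Irf7, Tlr3 and Tlr7, were called higher, against 6.98% of all genes. Tlr7, which rose by 1.16 there, was 0.10 above Ctrl at 1 dpi, and Tlr3 (1.05) was below 2-fold under 8 alternatives, with 0.36 after normexp correction as the lowest and 0.94 to 0.99 when single arrays were left out. A further Tlr3 probe gave a larger difference at both times (3.14 at 3 dpi), and the deposited table gave 2.83 at 3 dpi, so the size of its change depended on the probe.

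Of 20 other interferon-induced effectors, 14 were called higher at 1 dpi, against 12.3% of all genes, and none lower, with a median of 1.39. Rsad2, which encodes viperin, rose by 2.98 (SE 0.07, adjusted p = 2.5e-07), the GTPase gene Mx1 by 2.96 (SE 0.10, adjusted p = 9.9e-07), the oligoadenylate synthetase-like genes Oasl1 and Oasl2 by 2.46 and 2.21, and the ubiquitin-like modifier Isg15 by 2.34. Each of these changes was smaller than those of Ifit3 and Ifit3b, although a further probe of Mx1 gave 3.65. At 3 dpi 3 of the 20 were called, against 6.98% of all genes called higher, namely Mx1 (1.77), Ifi44 (1.14) and Mx2 (1.03), and the median was 0.56. A second probe of Ifi44 gave 0.47 there, and that of Mx2 gave 0.03 at 3 dpi and 0.54 at 1 dpi. Mx2 was below 2-fold at 3 dpi under 7 alternatives and Ifi44 under 3, and only 1 of the 20 was called there with the deposited log2 table. Ifi44 also fell under 2-fold at both times without Ctrl replicate 1 (0.94 at 1 dpi and 0.98 at 3 dpi), as did Mx2 at 3 dpi without 3 dpi replicate 1 (0.98). Between 1 and 3 dpi 9 of the 20 were called lower, against 4.82% of all genes, and none higher, with a median of -0.94. Rsad2 fell by 2.30 in that interval and was 0.68 above Ctrl at 3 dpi (adjusted p = 2.7e-04 from limma), short of 2-fold and so not called.

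**Figure D3:**
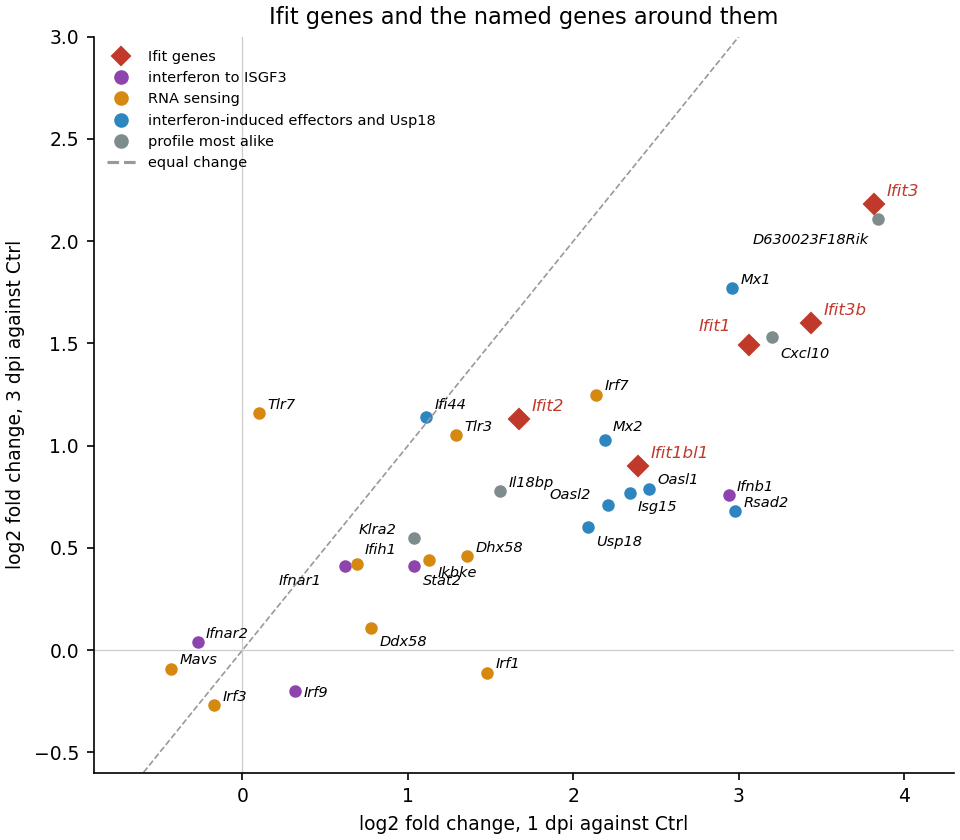
Log2 fold change against Ctrl at 3 dpi plotted on that at 1 dpi for the 5 Ifit genes (red diamonds) and the named genes of the pathway (circles, coloured by list); the dashed line marks equal change, and both axes share the Ctrl arrays. All 5 Ifit genes lie below the line, Ifit3 at 3.82 and 2.18, and the fitted value drawn for Ifnb1 rests on Ctrl arrays not well above background.

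The ISRE core letters searched upstream of the Ifit genes were looked for in these lists too. They were present in a window of 6 of the 15 effector genes that have one (Isg15, Rsad2, Oas1a, Oas1g, Oas3 and Eif2ak2) and in 2 of 9 sensing genes (Ddx58 and Ifih1), against 3.99% of all genes with a window. Of the negative regulators 1 of 3 had them (Socs1), and they were in 0 of 4 genes for cap methylation and eIF3 and 0 of 5 flanking genes, Ch25h included.

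Cap methylation and the eIF3 subunits bound by IFIT proteins were represented by 6 genes (Rnmt, Ramac, Cmtr1, Cmtr2, Eif3c and Eif3e). They had 0 calls in each of the 3 comparisons in limma. Shares over the whole set tested were 12.3% upward and 2.87% downward at 1 dpi, and 6.98% and 1.82% at 3 dpi. Between 1 and 3 dpi these shares were 3.97% and 4.82%. With only 6 genes, 0 calls cannot be told apart from such shares. The median change of the 6 was -0.29 at 1 dpi and -0.03 at 3 dpi. However, 1 of the 6 was called lower at 1 dpi with array medians made equal. Of the 5 negative regulators of interferon signalling, Usp18 rose by 2.09 at 1 dpi (adjusted p = 5.8e-07, SE 0.06) and was 0.60 above Ctrl at 3 dpi, while Socs1, Socs3, Ptpn2 and Trim24 were not called at either time. Of these regulators, 1 was called lower at 1 dpi with the deposited table. Usp18 is also on the list of effectors above, so its calls are counted in both lists.

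Outside the family, the genes whose profile over the 9 arrays was most like the mean of the members were Cxcl10, a chemokine induced by interferon (Pearson r = 0.999), Klra2 (0.998) and Il18bp, the interleukin-18 binding protein (0.998). Next came a probe named by its place at chr11:96111499-96126224 of mm9 (0.998), the probe NAP030094-1 and D630023F18Rik (0.997). In 61 genes r was over 0.99. The arrays fall into 3 groups, so r mainly describes how the group means run. Cxcl10 was at 0.39, 0.45 and 0.43 in Ctrl, at 3.55, 3.66 and 3.65 at 1 dpi and at 1.88, 2.01 and 1.98 at 3 dpi. The groups lay apart, with Ctrl lowest and 1 dpi highest. Its rise was 3.20 at 1 dpi and 1.53 at 3 dpi (2.52 and 0.48 for its other probe), and that of D630023F18Rik was 3.84 and 2.11 (2.74 and 1.56 for its other probe). Each member's own r with the mean of the other members was between 0.968 (Ifit1bl1) and 0.997 (Ifit1).

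The arrays hold RNA of a bulk preparation, in which fewer cells of a type and less RNA per cell cannot be told apart, so the markers of other marrow cells are given beside the Ifit genes. The mean level of the 5 Ifit genes was -1.36 to -1.31 on the Ctrl arrays, 1.52 to 1.55 at 1 dpi and 0.09 to 0.14 at 3 dpi. Counts of called markers stand beside 12.3% of all genes called higher and 2.87% lower at 1 dpi, and 6.98% and 1.82% at 3 dpi. Of the 12 megakaryocyte markers, 0 were called in any comparison, and their mean level was 1.57 in Ctrl (SD over arrays 0.10), 1.51 at 1 dpi (SD 0.08) and 1.77 at 3 dpi (SD 0.01). Of 13 macrophage and monocyte markers, 1 was called lower and 5 higher at 1 dpi, and 10 were called higher at 3 dpi. Their mean level was 1.07 to 1.21 in Ctrl, 1.63 to 1.73 at 1 dpi and 2.87 to 2.88 at 3 dpi, so it was highest at 3 dpi, when the Ifit genes were lower than at 1 dpi. Siglec1 and Fcgr1, which are themselves known to respond to interferon, were among those called higher at both times. Siglec1 was also called higher at 3 dpi than at 1 dpi. The reason for their change was not tested.

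Stromal markers (6 of 8 called higher at 1 dpi, 5 at 3 dpi) and endothelial markers (3 and 5 of 6) also had their highest mean level at 3 dpi. The stromal mean was -0.96 in Ctrl (SD over arrays 0.20), 0.56 at 1 dpi (SD 0.15) and 1.30 at 3 dpi (SD 0.10), and the endothelial mean on the arrays of these groups was -2.53 to -2.43, -1.85 to -1.68 and -0.93 to -0.73. Of 9 B cell markers, 8 were called lower at both times, with means of 0.37 to 0.47 in Ctrl, -2.61 to -2.57 at 1 dpi and -2.24 to -2.21 at 3 dpi. Of 9 erythroid markers, 5 were lower and 2 higher among the calls at 1 dpi, and 7 were called lower at 3 dpi, with mean levels of 1.68, 0.02 and 0.13 in the 3 groups. Neutrophil markers, with 2 of 9 called higher at 1 dpi (S100a8 and S100a9) and none at 3 dpi, were at 6.45 to 6.51 in Ctrl, 6.92 to 7.01 at 1 dpi and 6.34 to 6.47 at 3 dpi. Of 8 T and NK cell markers, 1 was called higher at 1 dpi and 3 at 3 dpi, and of 7 dendritic and plasmacytoid markers tested, 2 were called lower at both times and 1 was called higher at 1 dpi. The mean levels in Ctrl, at 1 dpi and at 3 dpi were -2.01, -1.44 and -1.07 for the T and NK list and -1.04, -1.38 and -1.61 for the dendritic list. The dendritic marker Xcr1 was the 1 marker not tested, because its probe did not pass the filter. All markers tested were well above background on all arrays except 1 endothelial marker in Ctrl and at 1 dpi and 1 erythroid marker at 1 dpi, each on at least 1 array. The part of other marrow cells in the levels of the Ifit genes was not tested.

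**Figure D4:**
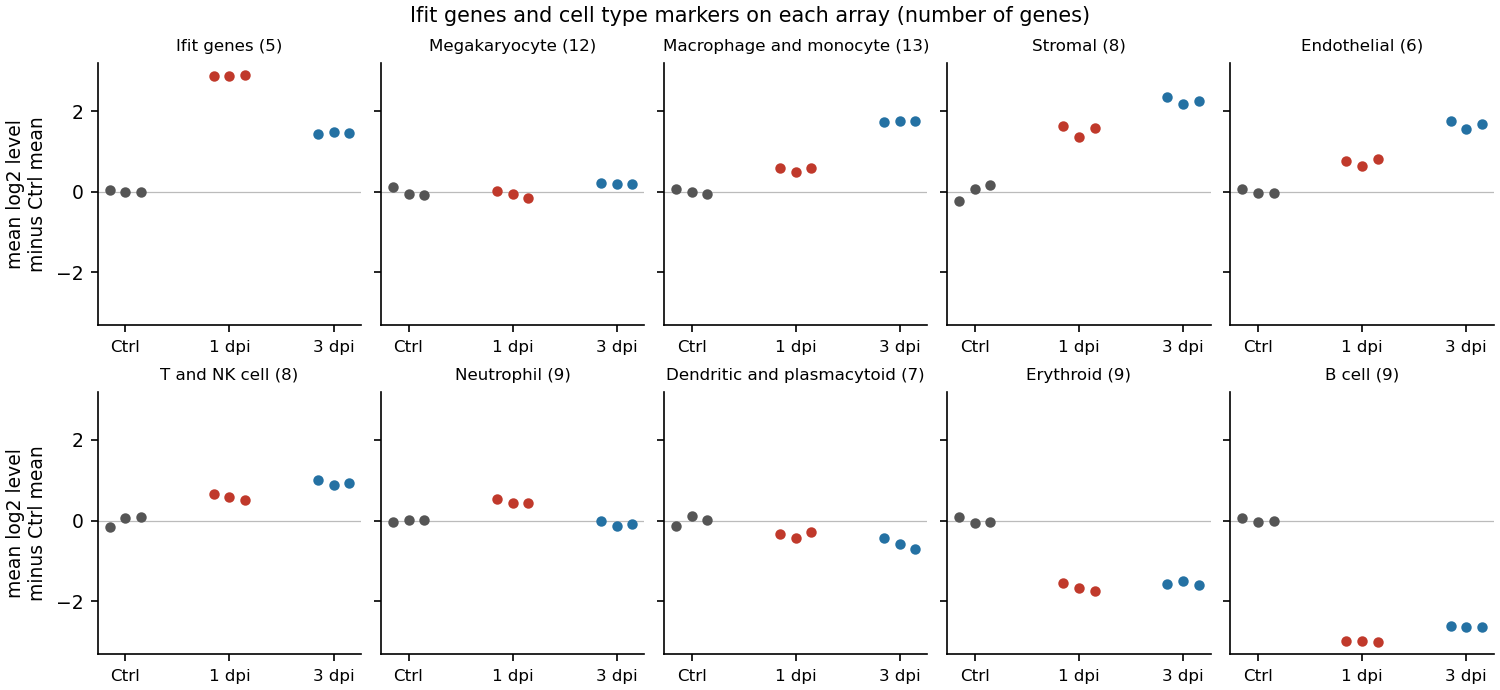
Mean scaled log2 level of the Ifit genes and of each list of cell type markers on each of the 9 arrays, given as the difference from the list's own Ctrl mean, with the number of genes in brackets. The Ifit genes and, by a smaller step, the neutrophil list are highest at 1 dpi, whereas the macrophage, stromal, endothelial, T and NK cell and megakaryocyte lists are highest at 3 dpi.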

How the data were processed

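Spot intensity values from Agilent Feature Extraction were deposited by the authors for each array (version 10.7.1.1 in the submitters' processing notes), with background subtracted and arrays not scaled to each other. The study's methods describe an Affymetrix chip, which is not what the files hold. The authors also deposited a log2 table with a value per gene name and array (27275 names, column medians 5.79 to 5.87), whose making is not stated. For the Ifit genes it lay within 0.0025 of quantile-normalized intensities, and it was used as an alternative with the 21690 genes it shares. Of its value columns, 0 were left unused.

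Control spots and outlier spots were left out (20 of 56605 probes) and spots of a probe averaged. Probes were named through their RefSeq accession where the RefSeq gene table (GRCm38.p6) holds it (32984 probes), otherwise by the array's gene name. The log2 intensity minus the array's 75th percentile was used. A probe was kept when it was well above background on every array of 1 group or more, and the brightest probe stood for its gene. Groups were compared in one limma 3.58.1 fit (R 4.3.3) with a mean per group, and calls needed a 2-fold change and an adjusted p (Benjamini-Hochberg) under 0.05. The calls were checked on simulated data. The number of arrays limits the precision, and where arrays share an experiment the p-values measure only the spread between these arrays. Files were read with data.table (version 1.17.8), upstream sequences were aligned with Biopython 1.88 and figures drawn with matplotlib 3.10.9 in Python 3.11.15.

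Named genes are the members, the genes of their locus, up to 5 called genes of each pathway list with the largest change among those above background throughout the groups compared, a fixed set of interferon and sensor genes, and the 6 genes with the highest Pearson r with the members' mean centred profile. Irf3, Mavs, Ifnb1 and similar genes are thus given whatever their change. Markers, list members named without a value and the genes with an ISRE match stand outside this rule. A gene of the pathway lists is not reported here, nor are counts over its list. The members and lists were chosen with earlier results of these data known. Alternatives changed the filter, the probe, the scaling, the background correction, the source of values, the test, the fold limit, the slide or replicate number as a block, and the arrays used.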

Additional observations from a re-analysis of the deposited data

Results flagged for a closer look

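The changes at 1 and 3 dpi share the Ctrl arrays, and the limma fit of 3 dpi against 1 dpi tests the difference between them. Among the Ifit genes this difference was called for Ifit3b (-1.85 on the log2 scale), Ifit3 (-1.64), Ifit1 (-1.58) and Ifit1bl1 (-1.48), all lower at 3 dpi. It was also called for the upstream genes Ifnb1 (-2.18) and Irf1 (-1.59) and for the induced genes Rsad2 (-2.30), Oasl1 (-1.67), Isg15 (-1.57), Oasl2 (-1.51), Usp18 (-1.49), Mx1 (-1.20) and Mx2 (-1.15). Of the genes most like the family, D630023F18Rik (-1.73), Cxcl10 (-1.66) and the probe on chromosome 11 (-1.06) were lower too, which their choice by likeness to the members' profile over the same arrays already implies. Tlr7 (1.06) and Slc16a12 (1.17) were higher at 3 dpi, the latter against 1 dpi arrays of which 2 of 3 were well above background. Mx2 and the chromosome 11 probe were below 2-fold after scaling to the array median (-0.96 and -0.86), and Ifnb1 and Slc16a12 after normexp correction (-0.67 and 0.47), as were Tlr7 and Mx2 with the mean of their probes (0.96 and -0.83). Groups of 3 arrays were not tested for outlying arrays.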

How the results depend on the processing

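Of 22 alternatives, 9 left out an array each. The counts of Ifit genes called were within 1.5 times the reported ones under all of them. Of the 330 values of single members, 327 kept their side of the threshold, 3 passed it and 0 changed sign. These values are not independent checks. Each member has 1 probe, which was above background on all arrays. The alternatives of filter, probe, fold limit and t-test therefore could not move its fold change. For these genes the deposited table also repeats quantile normalization. Dropping the fold limit added Ifit1bl1 at 3 dpi and Ifit2 between 1 and 3 dpi, and Ifit1bl1 at 3 dpi was called without 3 dpi replicate 1. Over all settings, the change at 1 dpi was 3.51 to 3.86 for Ifit3 and 1.36 to 1.75 for Ifit2, and that of Ifit1bl1, the dimmest member, 1.61 to 2.45. At 3 dpi Ifit1bl1 was between 0.51 and 1.04, and the difference of Ifit2 between 1 and 3 dpi was -0.59 to -0.35, with an adjusted p of up to 0.12. The counts over all genes moved more. With no fold limit the calls numbered 16443 at 1 dpi, 9416 at 3 dpi and 13125 for 3 against 1 dpi, since the rule is wider. After normexp correction and quantile normalization they were 1667, 1147 and 1088, and with no filter 4489 between 1 and 3 dpi (2588 in the reported fit). The cause was not tested. With a 2-fold limit added, the methods' t-test called 3946 genes at 1 dpi, and 3360 after Benjamini-Hochberg adjustment. Of 2295 values of 35 other named genes, 2185 kept their side of the threshold, 51 lost a call, 59 gained one and 0 reversed a call.

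Replicate numbers did not pair the arrays. The deviations of arrays with the same number correlated at -0.11 to 0.13, with 1 of 9 pairs over 0.1. With the replicate block, limma gave 5 Ifit genes higher at 1 dpi, 4 higher at 3 dpi and 4 lower for 3 against 1 dpi, with 0 in the opposite direction each time, and 4273, 2498 and 2494 genes in all. Signal over background limits the dimmest genes, for which a group not well above background gives only a bound.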
